A study of Homo sapiens and Mus musculus with 12 samples.

Results

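Antigen presentation was followed in mouse colon through 10 genes chosen by symbol, 5 of the MHC class I pathway (B2m, Tap1, Psmb8, Psmb9 and Nlrc5) and 5 of the class II pathway (H2-Aa, H2-Ab1, H2-Eb1, Cd74 and Ciita). All 10 were among the 17383 genes of the mouse table. Poly(A) RNA had been sequenced in 3 colon libraries from mice lacking Zfp280c (knock-outs) and 3 from wild-types, all C57BL/6J mice killed at 12 weeks. Zfp280c encodes a zinc finger protein, and how the allele was made, the sex of the mice and the stretch of colon taken are not given in the sources used here. The labels number the libraries of a genotype without saying that each came from its own animal, so p-values measure the spread between these libraries. Levels are in FPKM, the authors' unit, which scales fragments to transcript length and to the library's total and so can be set side by side between genes. Read depth is unknown, so no counting error can be given.

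Class I molecules show peptides made inside the cell to CD8 T cells and are present on nearly all nucleated cells. Proteasomes cut proteins into peptides, the TAP transporter carries them into the endoplasmic reticulum, and the peptides are loaded onto a heavy chain held by beta-2 microglobulin. Class II molecules show peptides from the endosome to CD4 T cells and are typical of B cells, dendritic cells and macrophages, although gut epithelium can also make them under interferon gamma. The regulator NLRC5 drives the class I genes and CIITA the class II genes.

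The libraries differed in ways other than genotype. Zfp280c stood at 0.09, 0.09 and 0.22 FPKM in the knock-outs, against 2.48, 2.25 and 3.17 FPKM in the wild-types (adjusted p = 0.123, limma). A HOX position score, which sets the mean log2 level of Hoxb6, Hoxb7 and Hoxb8 against the distal genes Hoxa13, Hoxb13 and Hoxd13, was 2.14, 0.29 and 0.70 in the knock-outs and 0.87 in wild-type replicate 2. It was -4.20 and -6.23 in wild-type replicates 1 and 3, which also stood apart on the first principal component. Wild-type replicate 2 was the only wild-type library whose score lay within the range of the knock-outs. Colon epithelium was present throughout, with the adhesion molecule Epcam, named after its values were seen, between 917.25 and 1060.72 FPKM. In bulk tissue, fewer cells of a type and less RNA per cell cannot be told apart.

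The class I members had higher group means in knock-out colon, by 1.44-fold to 2.53-fold, and none passed the test. The class II members differed more within each genotype than between genotypes, with ratios of group means of 0.834 to 1.32. Groups were compared with limma on log2(FPKM + 1) over the 11366 genes with a mean of at least 1 FPKM, and calls needed an adjusted p (Benjamini-Hochberg) below 0.05. Of these 11366 genes, 0 were called (0%), and 1420 (12.5%) had an unadjusted p under 0.05. Ciita, with a mean below 1 FPKM, was not tested, so 9 of the 10 members were.

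B2m, which encodes the beta-2 microglobulin light chain shared by all class I molecules, was the most abundant member. It stood at 1299.88, 1113.47 and 1288.76 FPKM in the knock-outs, against 872.60, 1069.75 and 467.96 FPKM in the wild-types. The groups did not overlap, but the lowest knock-out and wild-type replicate 2 differed by a small margin against the distance to wild-type replicate 3. Mean B2m was 1234 ± 105 FPKM in knock-out and 803 ± 307 FPKM in wild-type colon (SD, n = 3 each). The difference on the log2 scale was 0.70 ± 0.29 (SE, with an adjusted p = 0.396 in limma).

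Tap1, a subunit of the peptide transporter, stood at 35.60, 20.89 and 27.73 FPKM in the knock-outs, against 14.43, 20.23 and 12.29 FPKM in the wild-types. Here too every knock-out lay above every wild-type, knock-out replicate 2 only just above wild-type replicate 2. Its log2 fold change was 0.80 ± 0.24, with the lowest unadjusted p of the members (0.0133; adjusted p = 0.396, limma). For B2m and Tap1 an exact two-sided permutation test gave p = 0.1, the smallest possible with 3 against 3 libraries. For Psmb8, Psmb9 and Nlrc5 the same permutation test gave p = 0.3, 0.2 and 0.2. Over all genes tested, groups lay apart in 16.9%, with the knock-outs as the higher group in 7.13% and the lower in 9.79%.

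Psmb8 and Psmb9 encode catalytic subunits of the immunoproteasome, the form of the proteasome that interferon induces. Psmb8 stood at 83.25, 48.08 and 73.07 FPKM in the knock-outs, against 48.47, 51.04 and 32.07 FPKM in the wild-types. Psmb9 stood at 50.46, 28.58 and 38.22 FPKM in the knock-outs, against 27.63, 29.37 and 24.45 FPKM in the wild-types. In both genes knock-out replicate 2 lay below wild-type replicate 2, so the groups overlapped, and the other knock-outs lay above all wild-types. The log2 fold changes were 0.62 ± 0.25 for Psmb8 and 0.48 ± 0.20 for Psmb9 (adjusted p = 0.396 for each, limma).

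Nlrc5, the class I transactivator, was the lowest class I member and varied most, by 7.22-fold between its highest and lowest library. It stood at 4.84, 1.87 and 3.10 FPKM in the knock-outs, against 1.08, 2.13 and 0.67 FPKM in the wild-types. Wild-type replicate 2 again lay inside the knock-out range. The mean was 3.27 ± 1.49 FPKM in knock-out and 1.29 ± 0.753 FPKM in wild-type colon, or 0.89 ± 0.32 higher on the log2 scale (adjusted p = 0.396, limma). The 1 FPKM added before taking logs shrinks this value, which was 1.31 with 0.1 FPKM added.

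**Figure D1:**
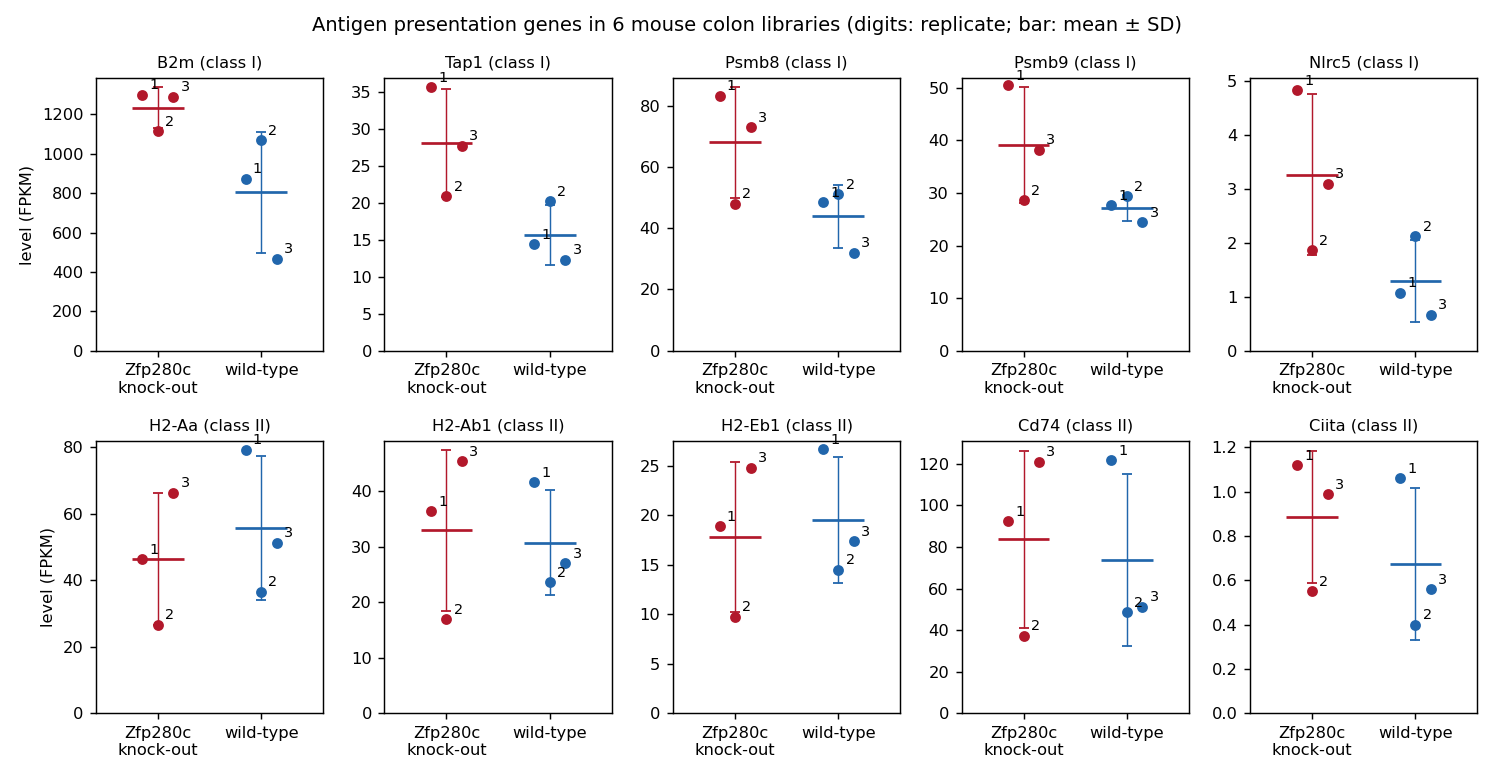
Level of each member in FPKM (vertical axes, from 0) in 3 Zfp280c knock-out and 3 wild-type colon libraries, where digits are replicate numbers, horizontal bars group means and whiskers SD. B2m and Tap1 are the members whose groups do not overlap, and in all class II members the lowest 2 libraries are knock-out replicate 2 and wild-type replicate 2.

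An unadjusted p under 0.05 was reached by 3 of the 5 class I members, Tap1, Psmb8 and Nlrc5, all higher in knock-out colon, against 6.02% of all genes tested that were higher and 6.48% that were lower. The median log2 fold change of the 5 was 0.70, against -0.02 over all genes tested, of which 44.6% were positive. In 4 of the 5, all except Psmb8, the lowest libraries were wild-type replicates 1 and 3, an order seen in 22% of genes tested. In all 5 the highest were knock-out replicates 1 and 3, an order seen in 10.3%. These orders were counted after the values were seen.

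Class I calls appeared when wild-type replicate 2 was left out, and the fold changes were smaller with the HOX score as a covariate. Without wild-type replicate 2, Tap1 (0.99, adjusted p = 0.0246), Nlrc5 (1.14, adjusted p = 0.0450) and B2m (0.94, adjusted p = 0.0480) rose, while Psmb8 (0.74, adjusted p = 0.110) and Psmb9 (0.53, adjusted p = 0.155) did not pass in limma. That fit called 16.4% of 11344 genes, 9.21% as higher and 7.19% as lower, and it sets knock-outs of proximal HOX pattern against wild-types of distal HOX pattern. With the HOX score as a covariate, the log2 fold changes of B2m, Tap1, Psmb8, Psmb9 and Nlrc5 were 0.09, 0.33, 0.21, 0.24 and 0.25, and the lowest adjusted p of the 5 was 0.996 (limma). That fit called 0 genes, and 3.66% had an unadjusted p under 0.05. Among libraries of proximal HOX pattern only, the Tap1 knock-out values of 35.60, 20.89 and 27.73 FPKM stood against 20.23 FPKM, with 1 wild-type library and no test. B2m too was higher in every knock-out than in wild-type replicate 2. Psmb8, Psmb9 and Nlrc5 were lower in knock-out replicate 2 (48.08 against 51.04, 28.58 against 29.37 and 1.87 against 2.13 FPKM) and higher in the other knock-outs. Between the knock-outs and wild-type replicates 1 and 3, genotype and HOX pattern cannot be told apart.

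The class II members kept a common order over libraries that cut across genotype. H2-Aa encodes the alpha chain of the I-A molecule and stood at 46.45, 26.63 and 66.43 FPKM in the knock-outs, against 79.25, 36.65 and 51.35 FPKM in the wild-types. H2-Ab1, its beta chain, stood at 36.41, 16.96 and 45.46 FPKM in the knock-outs, against 41.59, 23.63 and 27.10 FPKM in the wild-types. Both groups covered much the same range, with knock-out replicate 3 and wild-type replicate 1 on top and knock-out replicate 2 and wild-type replicate 2 at the bottom. Log2 fold changes were -0.28 ± 0.39 for H2-Aa (adjusted p = 0.752, limma) and 0.03 ± 0.38 for H2-Ab1 (adjusted p = 0.978, limma).

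H2-Eb1 encodes the beta chain of the I-E molecule, whose alpha chain gene is defective in C57BL/6 mice. It was transcribed in every library, at 18.92, 9.76 and 24.80 FPKM in the knock-outs, against 26.66, 14.50 and 17.38 FPKM in the wild-types, about the same order as H2-Aa. Cd74, the invariant chain that guides class II molecules to the endosome, stood at 92.5, 37.30 and 121.08 FPKM in the knock-outs, against 121.70, 48.64 and 51.31 FPKM in the wild-types. It was the most abundant class II member in every library except wild-type replicate 3, where H2-Aa was level with it. Log2 fold changes were -0.17 ± 0.36 for H2-Eb1 (adjusted p = 0.839, limma) and 0.15 ± 0.52 for Cd74 (adjusted p = 0.908, limma). Exact permutation p-values were 0.6, 1, 0.8 and 1 for H2-Aa, H2-Ab1, H2-Eb1 and Cd74.

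Ciita, the master regulator of class II genes, stood at 1.12, 0.55 and 0.99 FPKM in the knock-outs, against 1.06, 0.40 and 0.56 FPKM in the wild-types. Again knock-out replicate 2 and wild-type replicate 2 were lowest. At so low a level the values say little about the groups, and with no filter on low values its adjusted p was 0.700 (limma).

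In all 5 class II members the lowest libraries were thus knock-out replicate 2 and wild-type replicate 2, an order seen in 9% of genes tested. In 4 of them, all but Ciita, the highest were knock-out replicate 3 and wild-type replicate 1, an order seen in 3.22%. The 4 tested members had a median log2 fold change of -0.07, with 2 positive and 2 negative, and 0 had an unadjusted p under 0.05. Their signs turned with single libraries. H2-Ab1, for example, stood at 0.43 without knock-out replicate 2 and -0.25 without knock-out replicate 3, neither of which passed.

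**Figure D2:**
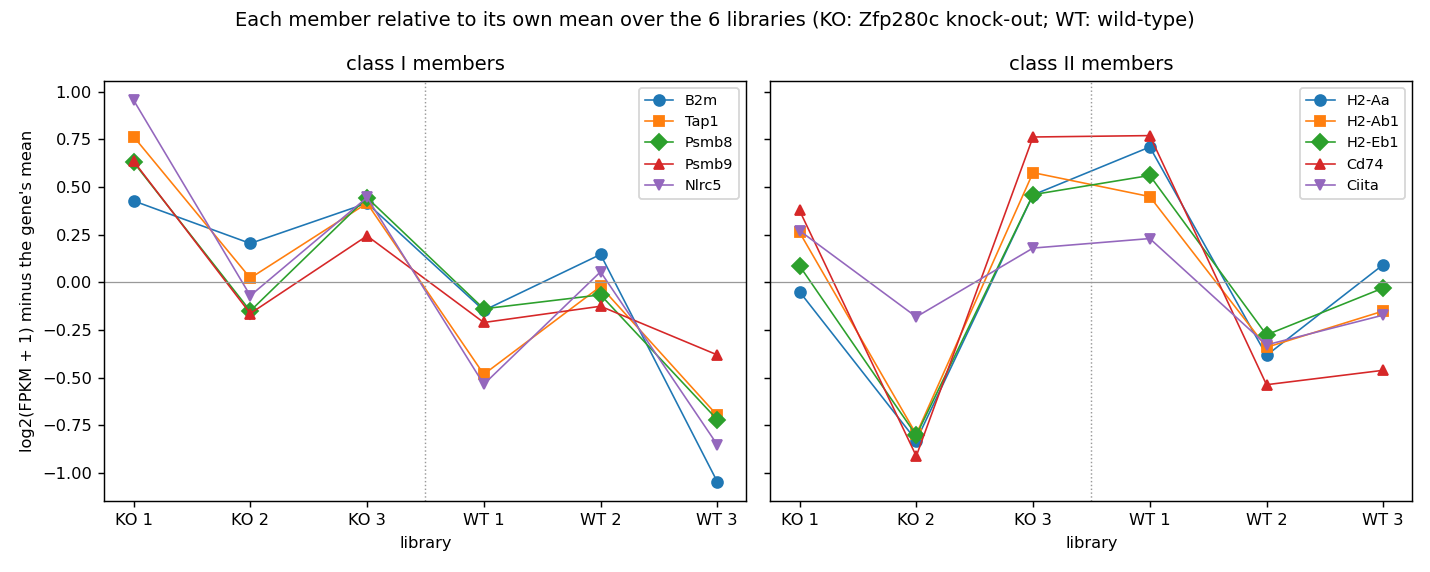
Each member's log2(FPKM + 1) minus its own mean over the 6 libraries (vertical axis), by library (KO, Zfp280c knock-out; WT, wild-type), with class I members at left and class II members at right. All class I members are highest in knock-out replicate 1 and lowest in wild-type replicate 3, and class II members are high in knock-out replicate 3 and wild-type replicate 1 and low in knock-out replicate 2.

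The class II chains moved together. The ratio of H2-Eb1 to H2-Ab1 FPKM was 0.520, 0.575 and 0.546 in the knock-outs, against 0.641, 0.614 and 0.641 in the wild-types, a 1.23-fold range while the level of H2-Ab1 itself ranged 2.68-fold. The small difference between genotypes in this ratio did not overlap and was not tested. For H2-Aa to H2-Ab1, the 2 chains of I-A, the ratio was 1.28, 1.57 and 1.46 in the knock-outs, against 1.91, 1.55 and 1.89 in the wild-types. That is a 1.49-fold range. The ratio of Cd74 to H2-Aa was looser, at 1.99, 1.40 and 1.82 in the knock-outs, against 1.54, 1.33 and 0.999 in the wild-types. These ratios were chosen after the values were seen.

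Leukocyte RNA moved with the class II members. The 6 pan-leukocyte markers summed to 49.24, 31.51 and 57.02 FPKM in the knock-outs, against 75.56, 38.92 and 38.55 FPKM in the wild-types. That is the order of the class II profile (the mean centred log2 of H2-Aa, H2-Ab1, H2-Eb1 and Cd74) except that wild-type replicates 2 and 3 change places. H2-Aa, H2-Ab1 and H2-Eb1 together stood at 19.5, 18.0 and 25.8 times the level of Ptprc, the CD45 gene (also chosen after its values were seen), in knock-out and at 25, 19.5 and 29.8 times in wild-type libraries. This ratio ranged 1.65-fold, against 2.76-fold for the summed chains alone. Set against Cd79a, a B cell marker, the summed chains ranged more widely, 4.93-fold. The part of leukocyte content in the class II levels was not tested.

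Among the cells that carry class II, B cells varied most. The 9 B cell markers summed to 5.52, 3.98 and 14.86 FPKM in the knock-outs, against 32.81, 6.58 and 16.13 FPKM in the wild-types, and none was at 0 in all libraries. Knock-out replicate 3 and wild-type replicates 1 and 3 were the high libraries. Cd79a, part of the B cell receptor complex, stood at 1.66, 0.80 and 5.46 FPKM in the knock-outs, against 10.91, 2.0 and 4.75 FPKM in the wild-types, and Cd79b and Cd22 were likewise highest in wild-type replicate 1. All 5 B cell markers tested had negative log2 fold changes (median -0.70) and 0 were called, with 0 at an unadjusted p under 0.05 (limma). Over all genes tested 44.6% were positive and 6.48% were lower at that p. Without wild-type replicate 2 the median of the 5 was -1.16. Cd79b fell in that fit (adjusted p = 0.0416, limma), which called 7.19% of all genes as lower. With the HOX score as a covariate the median was -0.09 and 2 of 5 were positive.

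Macrophage and dendritic cell RNA was present at lower contrast. The 11 macrophage markers in the table summed to 62.85, 60.65 and 92.79 FPKM in the knock-outs, against 168.3, 74.74 and 114.5 FPKM in the wild-types, most of it Lyz2, a lysozyme gene. All 8 tested were negative (median -0.36), 0 were called and 0 had an unadjusted p under 0.05 (limma). Over all genes tested 44.6% were positive and 6.48% were lower at that p. The median of the 8 was -0.07 with the HOX score as a covariate. Without wild-type replicate 2, Lyz2 fell (adjusted p = 0.0268, limma), in a fit that called 7.19% of all genes as lower. The 10 dendritic cell markers summed to 3.02 to 5.14 FPKM in knock-out and 3.12 to 4.52 FPKM in wild-type libraries, and only 2 reached the minimum for testing. Of the 2, the integrin Itgae stood at 0.41 and Itgax at -0.30 on the log2 scale without passing.

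**Figure D3:**
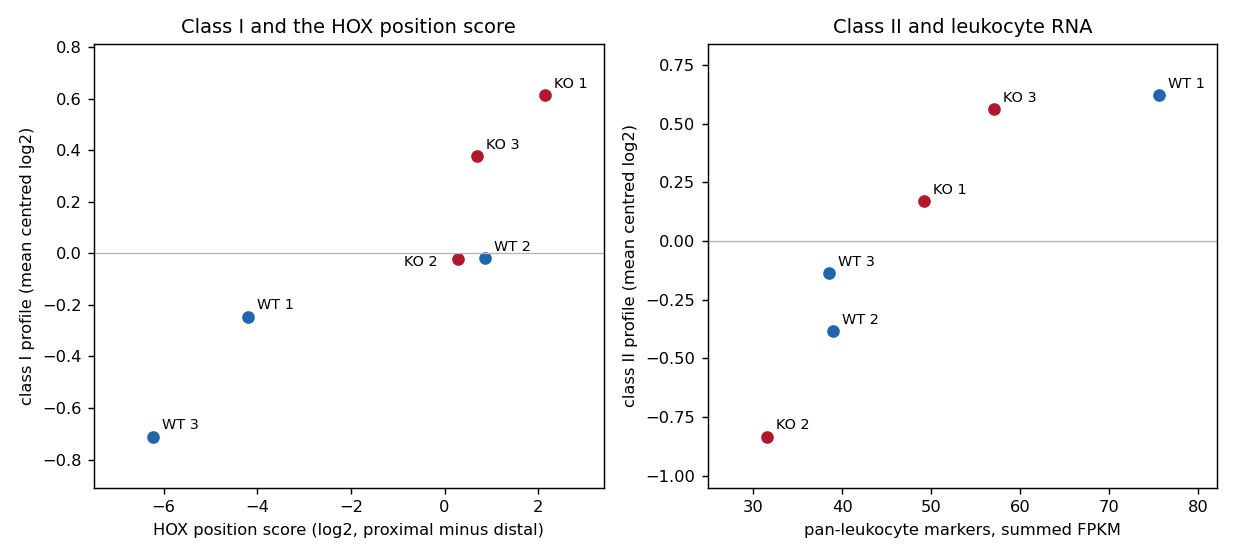
Left, class I profile (mean centred log2 of B2m, Tap1, Psmb8 and Psmb9) against the HOX position score, where higher is more proximal, and right, class II profile against the summed FPKM of 6 pan-leukocyte markers, with a point per library (red, knock-out; blue, wild-type). Wild-type replicates 1 and 3 have the lowest HOX scores and the lowest class I profiles, and wild-type replicate 1 has both the most leukocyte RNA and the highest class II profile.

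Other genes of the class II pathway showed no common direction. Of 13 tested, 0 were called, 6 were positive and 7 negative (median -0.06), and an unadjusted p under 0.05 was reached by 1 higher and 2 lower. Over all genes tested, 6.02% were higher and 6.48% lower at that p. Ifi30, a thiol reductase that unfolds antigens in the lysosome, stood at 79.29, 68.58 and 75.97 FPKM in the knock-outs, against 100.37, 87.87 and 111.13 FPKM in the wild-types (log2 fold change -0.41 ± 0.11, adjusted p = 0.396, limma). Lgmn, an asparaginyl endopeptidase, went the other way, at 37.12, 32.31 and 36.43 FPKM in the knock-outs, against 20.91, 30.65 and 16.71 FPKM in the wild-types (0.65 ± 0.21). Rfxank, a subunit of the RFX complex that binds class II promoters, and Ctsl, a cathepsin, stood at -0.24 and -0.35. Without wild-type replicate 2, Lgmn rose and Ifi30, Ctsl and the cathepsin Ctss, named after its values were seen, fell (adjusted p = 0.00683, 0.0182, 0.0107 and 0.0136, limma), in a fit that called 16.4% of all genes. With the HOX score as a covariate, Lgmn, Ifi30, Ctsl and Ctss stood at 0.17, -0.26, 0.02 and 0.08 on the log2 scale, and none passed.

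The genes that load or edit the class II groove differed in pattern from each other, and were picked out after their values were seen. H2-DMa and H2-DMb1 encode H2-M, which swaps the invariant chain fragment for peptide, and stood at 6.06, 2.77 and 6.01 FPKM and at 8.71, 3.01 and 9.46 FPKM in knock-out libraries. In wild-type libraries they stood at 3.38, 3.21 and 2.54 FPKM and at 6.03, 3.9 and 4.22 FPKM. H2-Ob, a chain of the H2-O inhibitor that is typical of B cells, was instead highest in wild-type replicates 1 and 3, at 0.55, 0.29 and 1.55 FPKM in the knock-outs, against 2.5, 0.53 and 1.81 FPKM in the wild-types. H2-DMb2 followed H2-Ob, with 1.20, 0.56 and 2.92 FPKM in the knock-outs, against 4.21, 1.18 and 2.85 FPKM in the wild-types. In both, the 3 high libraries were those with the most B cell marker RNA, knock-out replicate 3 and wild-type replicates 1 and 3. H2-Oa, the other H2-O chain, was below the minimum for testing and differed in this. It stood at 0.84, 0.37 and 1.29 FPKM in the knock-outs, against 2.28, 0.16 and 0.72 FPKM in the wild-types, with knock-out replicate 1 above wild-type replicate 3. None of the 4 tested genes passed.

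The rest of the class I pathway was mostly higher in knock-out colon, by less than the class I members. Of 14 tested, 0 were called, 11 were positive and 3 negative (median 0.18), and an unadjusted p under 0.05 was reached by 3 higher and 1 lower. Over all genes tested 44.6% were positive, and 6.02% were higher and 6.48% lower at that p. Groups lay apart with the knock-outs higher in 2 of the 14 and lower in 3, against 7.13% and 9.79% of all genes tested. Of the 14, 3 rose without wild-type replicate 2, in a fit that called 9.21% of all genes as higher. With the HOX score as a covariate the median was 0.06. Psme1 and Psme2, the 2 chains of the interferon-inducible PA28 activator of the proteasome, stood at 0.43 ± 0.17 and 0.29 ± 0.11 on the log2 scale, and Irf1, a transcription factor downstream of interferon, at 0.21 ± 0.08 (adjusted p = 0.396 for each, limma). Irf1 is counted in the interferon gamma list as well. Pdia3, the ERp57 chaperone of the loading complex, was the lower of the 4 with the lowest p, at 241.43, 193.22 and 219.21 FPKM in the knock-outs, against 263.35, 243.68 and 282.87 FPKM in the wild-types.

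The class I heavy chains themselves, named after their values were seen, were abundant and varied less than B2m. H2-D1 stood at 725.18, 746.88 and 734.85 FPKM in the knock-outs, against 575.43, 724.62 and 406.99 FPKM in the wild-types, with wild-type replicate 2 just under the knock-outs. H2-K1 stood at 877.98, 860.56 and 957.99 FPKM in the knock-outs, against 871.08, 854.60 and 676.26 FPKM in the wild-types, where the groups overlapped. The ratio of B2m to H2-K1 was 1.48, 1.29 and 1.35 in the knock-outs, against 1.00, 1.25 and 0.692 in the wild-types. Class I heavy chain genes are close copies of each other, and how reads were shared among them is not given, so their values are uncertain.

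Class I-like genes were mostly lowest in the libraries of distal HOX pattern. Of 19 tested, 16 were positive (median 0.43), 0 were called, and 5 had an unadjusted p under 0.05, all higher. Over all genes tested 44.6% were positive and 6.02% were higher at that p. In 14 of the 19 the lowest libraries were wild-type replicates 1 and 3, against 22% of genes tested. H2-Q2 stood at 141.34, 137.66 and 157.18 FPKM in the knock-outs, against 73.83, 114.41 and 51.83 FPKM in the wild-types, and H2-Q1, H2-Q4 and H2-Bl stood at 0.72, 0.43 and 0.53 on the log2 scale. H2-T3, the ligand of CD8 alpha homodimers known as TL, was named after its values were seen. It stood at 52.59, 47.45 and 50.25 FPKM in the knock-outs, against 10.98, 40.25 and 1.26 FPKM in the wild-types. Of the 19, 7 rose without wild-type replicate 2, in a fit that called 9.21% of all genes as higher. With the HOX score as a covariate the list's median was -0.001 and 9 of 19 were positive. The H2-Q and H2-T genes of this list, too, are close copies of each other and uncertain for that reason.

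Immunoproteasome subunits take the place of constitutive ones, which can be read as a ratio within a library. Psmb8 replaces Psmb5, Psmb9 replaces Psmb6 and Psmb10 replaces Psmb7. The Psmb8 to Psmb5 ratio was 0.945, 0.571 and 0.832 in the knock-outs, against 0.510, 0.503 and 0.319 in the wild-types. For Psmb9 to Psmb6 it was 0.582, 0.383 and 0.461 in the knock-outs, against 0.317, 0.296 and 0.275 in the wild-types. In both ratios every knock-out lay above every wild-type, wild-type replicate 2 included. Psmb8 and Psmb9 alone were lower in knock-out replicate 2 than in wild-type replicate 2 (48.08 against 51.04 FPKM and 28.58 against 29.37 FPKM). The order of these libraries in the ratios thus comes from lower Psmb5 (84.20 against 101.45 FPKM) and Psmb6 (74.53 against 99.37 FPKM). Groups lay apart in 16.9% of single genes tested, and no such share was taken for ratios. The Psmb10 to Psmb7 ratio, at 1.15, 1.01 and 1.26 in the knock-outs, against 0.947, 1.01 and 0.786 in the wild-types, overlapped. These ratios are a description, with no test.

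The constitutive subunits had slightly lower means in knock-out colon. Psmb5 stood at 88.11, 84.20 and 87.83 FPKM in the knock-outs, against 94.96, 101.45 and 100.43 FPKM in the wild-types, with no overlap. Psmb6 stood at 86.68, 74.53 and 82.98 FPKM in the knock-outs, against 87.04, 99.37 and 88.98 FPKM in the wild-types. Their log2 fold changes were -0.19 ± 0.07 and -0.17 ± 0.09 (adjusted p = 0.396 and 0.440, limma). Psmb3, with -0.19, and Psma1, with -0.31, encode structural subunits. Of 15 constitutive genes tested, 13 were negative (median -0.11), 0 were called and 1, Psmb5, had an unadjusted p under 0.05. Over all genes tested 44.6% were positive and 6.48% were lower at that p.

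**Figure D4:**
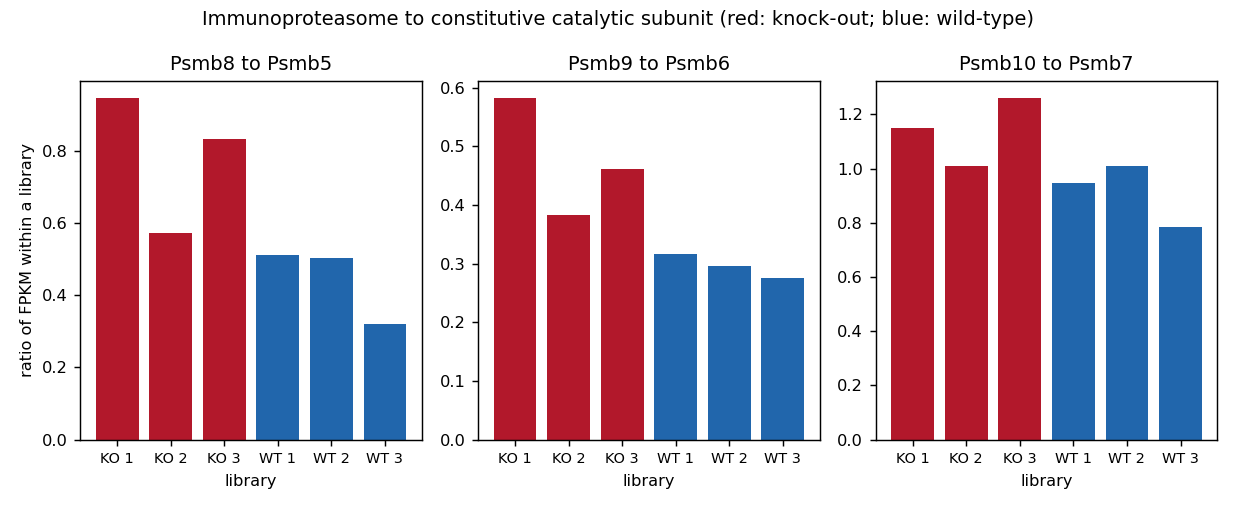
Ratio of FPKM of an immunoproteasome subunit to the constitutive subunit it replaces (vertical axes, from 0) in each library (red, knock-out; blue, wild-type). The lowest knock-out is 0.571 against a highest wild-type of 0.510 for Psmb8 to Psmb5, and 0.383 against 0.317 for Psmb9 to Psmb6, while the groups overlap for Psmb10 to Psmb7.

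Interferon gamma is the best known inducer of both pathways. Of 18 tested genes of its pathway, 16 were positive (median 0.39), 0 were called, and 8 had an unadjusted p under 0.05, all higher. Over all genes tested 44.6% were positive and 6.02% were higher at that p. Without wild-type replicate 2, 6 of the 18 rose and 1 fell, in a fit that called 9.21% of all genes as higher and 7.19% as lower. The immunity-related GTPases Irgm2 and Irgm1 stood at 27.83, 19.82 and 23.68 FPKM and at 73.65, 48.85 and 55.42 FPKM in knock-out libraries. In wild-type libraries they stood at 13.74, 17.70 and 12.20 FPKM and at 26.58, 45.67 and 22.54 FPKM. Igtp, a further GTPase gene of the family, stood at 0.86 on the log2 scale. Ifng itself, named after its values were seen, was near 0, between 0.05 and 0.14 FPKM in knock-out and between 0.05 and 0.09 FPKM in wild-type libraries. With the HOX score as a covariate the median of the list was 0.24 and 17 of 18 were positive.

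T and NK cell RNA moved with the class I members. The 11 markers in the table summed to 61.81, 37.39 and 47.00 FPKM in the knock-outs, against 18.72, 41.74 and 8.90 FPKM in the wild-types, and none was at 0 throughout. Of 8 tested, all were positive (median 0.72), 0 were called and 4 had an unadjusted p under 0.05, against 44.6% positive and 6.02% higher at that p over all genes. The 4 were the granzymes Gzmb and Gzma, the T cell receptor component Cd3g and the coreceptor Cd8a, at 1.55, 1.48, 0.69 and 0.83 on the log2 scale. Of the 8, 6 rose without wild-type replicate 2, in a fit that called 9.21% of all genes as higher. With the HOX score as a covariate the median was 0.03 and 6 of 8 were positive. In 7 of the 8 the lowest libraries were wild-type replicates 1 and 3, an order seen in 22% of genes tested. The same held for 6 of 7 smooth muscle markers (sums of 571.5 to 899.1 FPKM in knock-out and 424.8 to 703.9 FPKM in wild-type libraries) and 8 of 12 colon epithelium markers (16680 to 19780 FPKM in knock-out and 12280 to 19170 FPKM in wild-type libraries). It also held for 5 of 5 adipocyte markers tested, whose 7 listed genes summed to 57.96 to 130.8 FPKM in knock-out and 7.86 to 39.95 FPKM in wild-type libraries. The part of these cells in the class I levels was not tested. Tap1 per Ptprc was 6.82, 7.06 and 5.24 in the knock-outs, against 2.45, 5.27 and 3.82 in the wild-types, so the groups overlapped. Ptprc did not follow the T and NK cell markers. It was highest in wild-type replicate 1, at 5.89 FPKM, where those markers summed to 18.72 FPKM.

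Costimulatory genes, which a T cell needs beside the MHC signal, were mostly under 1 FPKM. Of 8 listed, 3 reached the minimum for testing, 0 were called, and 1, Cd83, was lower at an unadjusted p under 0.05. Over all genes tested, 6.48% were lower at that p. Cd83, a stabiliser of surface class II, stood at 1.20, 1.6 and 2.01 FPKM in the knock-outs, against 4.80, 1.84 and 3.32 FPKM in the wild-types, while the checkpoint ligand Cd274 stood at 0.29 and Icosl at -0.20 on the log2 scale. Without wild-type replicate 2, Cd83 fell (adjusted p = 0.0208, limma), in a fit that called 7.19% of all genes as lower. With the HOX score as a covariate Cd83 stood at -0.21.

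The genes nearest to each profile were ranked among 11357 non-members by root mean square distance between centred log2 levels over the 6 libraries. Nearest to the class I profile were Tnfsf10 (0.067), which encodes the death ligand TRAIL, Cd300lf (0.086), Il18bp (0.086), the chemokine Cxcl9 (0.094), Bche (0.096), the necroptosis effector Mlkl (0.097), Irgm2 (0.105) and the cathepsin Ctsw (0.106). Nearest to the class II profile were Coro1a (0.142), the apolipoprotein Apoe (0.143), the B cell receptor partner Cd72 (0.177), the tetraspanin Cd37 (0.191), Mfge8 (0.217), lymphotoxin beta, Ltb (0.218), Srgn (0.223) and Bcl2a1d (0.241). Cxcl9 and Irgm2 are also in the interferon gamma list, and Coro1a in the pan-leukocyte list. By the same measure Tap1 lay 0.117 from the class I profile, to which it contributes, and 0.680 from the class II profile. Cd74 lay 0.199 from the class II profile, to which it contributes, and 0.626 from the class I profile. Nlrc5, which is in neither profile, lay 0.197 from class I and 0.737 from class II.

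**Figure D5:**
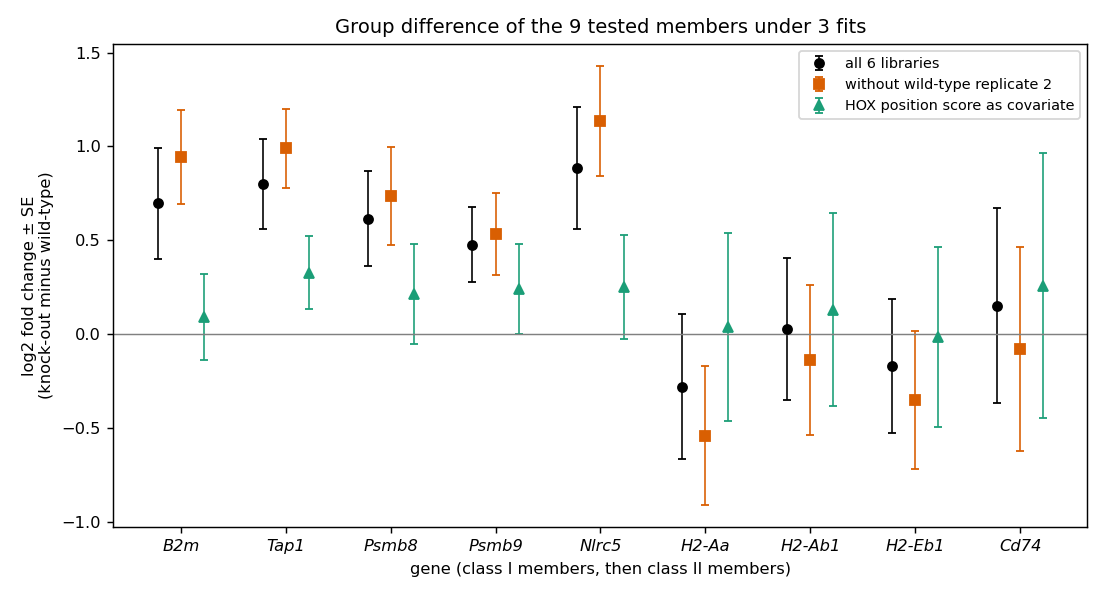
Log2 fold change (knock-out minus wild-type, on the log2(FPKM + 1) scale) with SE for the 9 tested members in fits with all 6 libraries, without wild-type replicate 2, and with the HOX position score as a covariate. The class I members lie between 0.48 and 0.89 with all libraries and between 0.09 and 0.33 with the HOX score, and the class II members scatter around 0.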

How the data were processed

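The mouse values are FPKM as the authors deposited them, for 17383 genes with Entrez and RefSeq identifiers. Tools listed in the submitters' processing notes, without versions or roles, are edgeR, HTSeq, Bowtie2 and HISAT. A mouse build is not given in the sources used here, so no positions or sequences are given. Columns were matched to samples by title, and 0 per-sample columns were left over. FPKM summed to between 491900.47 and 507206.33 per library. Total read depth is unknown.

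Values were taken as log2(FPKM + 1), genes with a mean of at least 1 FPKM were kept (11366), and knock-out was compared with wild-type by limma 3.58.1 in R 4.3.3 (trended variance). Adjusted p-values are Benjamini-Hochberg over all genes tested. The procedure was tested on simulated data. Members and lists were chosen with earlier results of these data known. Named were all members, Zfp280c, HOX genes, constitutive and immunoproteasome partners, up to 4 genes of lowest p per list and the 8 genes nearest to each profile. Other names are said to be chosen after their values were seen. Some genes that this rule names are not reported here. The RKO cell table was not used here. Alternatives were other pseudocounts, filters and scalings, robust variance, a replicate block, a HOX covariate and leaving out each library.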

Additional observations from a re-analysis of the deposited data

How the results depend on the processing

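In limma 0 genes were called in the fit as reported and in 15 of the 16 alternatives, while leaving out 1 library gave between 0 and 1861 calls, with 1861 without wild-type replicate 2. The 5 class I members kept a positive log2 fold change in all 79 alternative values. Leaving out each library in turn gave 0.35 to 0.94 for B2m, 0.62 to 0.99 for Tap1, 0.41 to 0.84 for Psmb8, 0.28 to 0.68 for Psmb9 and 0.63 to 1.14 for Nlrc5. Class II ranges crossed 0, at -0.58 to 0.065 for H2-Aa, -0.25 to 0.43 for H2-Ab1, -0.44 to 0.19 for H2-Eb1 and -0.19 to 0.65 for Cd74, and Ciita lay between 0.06 and 0.34. H2-Aa also turned to 0.036 with the HOX covariate. The cause was not tested. Nlrc5 has no value at a minimum of 5 FPKM, and Ciita has none there, with median or quantile scaling, robust variance or the block, and has a p only with no filter on low values.

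The replicate number as a block gave 0 calls (1242 genes at an unadjusted p under 0.05). Deviations of libraries with the same number correlated at -0.453, -0.137 and 0.151 over 11366 genes, so the numbers were not taken as pairs, and only replicate 3 correlated best with its own number.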
